A study of Homo sapiens with 26 samples.

Results

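The translation initiation factors are the proteins that bring the messenger RNA, the initiator transfer RNA and the ribosomal subunits together at a start codon. The set was formed from gene symbols: every gene whose symbol starts with EIF and that had a probe set naming no other gene, except EIF2AK2 and pseudogenes, with the probe set of highest mean deposited signal taken for each gene. This gave 52 genes of 19775 genes with such a probe set. Of the 52 symbols, 48 name protein-coding genes and 4 name noncoding transcripts lying next to a factor gene (EIF1B-AS1, EIF2AK3-AS1, EIF2AK3-DT and EIF3J-DT). By symbol the coding members held every class of factor, but EIF4A1, EIF3CL and EIF4EBP3 had only probe sets that named several genes and were not analysed here. As EIF4A2 did not pass the filter described below, the eIF4A helicase of eIF4F was not measured. All 52 symbols were found in the RefSeq gene table.

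RNA was measured on 26 Affymetrix U133 Plus 2.0 arrays of 786-O, an established line from a clear cell renal carcinoma. The line has no working VHL, which normally marks HIF-alpha subunits for degradation, and so accumulates HIF-2a. The series text describes 4 compounds found as HIF-2a inhibitors in a chemical genetic screen, and its title speaks of inhibiting HIF-2a translation. The array titles gave 8 groups of 3 arrays. They were Blk, taken by elimination as untreated cells, DMSO as the vehicle, the compounds 40, 41, 76 and 77, and PRC3 and WT8. The names PRC3 and WT8 are widely used for 786-O sublines with an empty vector and with restored VHL. The labels give neither this nor whether each was 1 clone. The titles pTR and pTV, with 1 array each, are not explained. The sources used here give neither doses and times nor the origin of replicates, so a p-value measures the spread between arrays, which may be technical.

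Initiation in the cytoplasm runs through a few modules. The eIF2 trimer carries the initiator transfer RNA and is recharged by eIF2B, and kinases that phosphorylate its alpha subunit slow general translation while some messages, such as ATF4, are translated more. The eIF4F complex reads the cap, and is held back by the eIF4E-binding proteins, which mTOR phosphorylates. The eIF3 complex and the small factors eIF1, eIF1A and eIF5 guide scanning for the start codon. The 5 prime leader of the HIF-2a message (EPAS1) holds an iron-responsive element, a stem-loop bound by iron regulatory proteins that block initiation. All values here are RNA levels, and neither protein levels nor translation were measured.

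The promoters gave one feature that the choice of members had not used, and short windows of them are shown because they carry the E-box and the core of the HIF site in genes described later. In the RefSeq promoter table (GRCh38.p14, 250 bases before to 50 after the start, first entry of a gene), 40 of the 48 coding members had an entry. The E-box CACGTG, a motif that MYC family factors and other helix-loop-helix proteins bind, occurred in 10 of the 40 (25%), against 8.88% of 15843 protein-coding promoters. ACGTG, the core of the HIF site, was searched on both strands and lies within every CACGTG. It occurred in 17 of the 40 (42.5%), against 23.7%. These 17 include all 10 members with the E-box, so this share is not independent of the E-box share. Whether the core without the E-box was in excess was not tested. TGACNNNGC, the core of the antioxidant element, occurred in 9 of the 40 (22.5%), against 14.3%, and TGATGNAA, the C/EBP-ATF element read by ATF4, in 0 of the 40, against 2.53%. A match describes letters in this window and not a bound site. The capitals mark the match in each window.
EIF4E (chr4:98929190-98929214, minus strand): catatccgtCACGTGgccagaagct
EIF1B (chr3:40309644-40309668, plus strand): cgggacggtCACGTGggaggggccg
EIF4B (chr12:53006425-53006449, plus strand): cgctataatCACGTGattgcctcat
EIF5A2 (chr3:170908784-170908808, minus strand): ggcgctcttCACGTGactgggcgga
EIF2AK3 (chr2:88627415-88627439, minus strand): agaggccgggctgagACGTGgccag

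The remaining E-box matches were in EIF2B3, EIF3F, EIF3K, EIF4A3, EIF4G1 and EIF4H. EIF2AK3 held the short core without the E-box. Members with the ACGTG core moved both ways between the sublines. With the replicate number as a block, 11 members were past the threshold between WT8 and PRC3, and 9 had a promoter entry. Of these 9, 5 held the core, against 17 of all 40 members with an entry. EIF2AK3 and EIF5A2 were the higher among the 5, and EIF2B2, EIF4A3 and EIF4B the lower.

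Signals are in arbitrary units after quantile normalization, with values under 20 set to 20, and a change is a difference of mean log2 signals. Of the 52 members, 50 passed the filter on low signals (no lower than the array's median signal on 3 or more of the 24 replicated arrays), 46 coding and 4 noncoding. EIF3C, a core eIF3 subunit, and EIF4A2, an RNA helicase of eIF4F, did not pass, with mean deposited signals of 9.67 and 5.51 in the single-gene probe sets taken. The genes of both also had probe sets shared with other genes, so these signals do not describe the level of either gene. The 46 coding members that passed had mean deposited signals from 50.8 (EIF4E3) to 4744 (EIF1), and 46 of the 50 members were above the floor on every replicated array. The spread within groups was small, with a median SD of 0.21 on the log2 scale over the members, from 0.081 in EIF4G2 to 0.58 in EIF5A, against 0.23 over the 12077 kept probe sets with a mean signal of at least 100.

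Facts of the arrays bear on several values below. Of the 7 renal epithelial markers, 5 had a mean signal of at least 100 (PAX2, PAX8, CDH6, KRT8 and KRT18), while CDH16 was under 20, and the summed signal of the list was 2906 to 4591 per array. No endothelial (0 of 4), leukocyte (0 of 4), fibroblast (0 of 5) or erythroid marker (0 of 2) reached that level, with sums of at most 134, 62.2, 292 and 97.9. The deposited columns of compound 40 replicates 2 and 3 had means of 165.9 and 173.7, where the other 24 columns shared a mean of 142.8. After quantile normalization, 40 replicate 2 had the highest share of kept values at the floor, 20.8%. Replicates 1 and 3 had 17.3% and 17.7%. Some probe sets, picked after their values were seen, stood apart on replicate 2. Over replicates 1, 2 and 3, dimmer probe sets read 1048, 399.6 and 912.2 (EIF3M), 346.1, 87.67 and 424.3 (EIF4E), and 423.7, 827.6 and 487.8 (EIF4E2). Changes with 40 include this array unless it is left out. In WT8 replicate 3 the ACTB probe sets at the 3 prime end read 2.37 times those at the 5 prime end, and elsewhere no more than 1.39 times. For GAPDH these ratios were 1.32 and no more than 1.06. EPAS1 had a signal of 464 ± 81.5 (SD, n = 3) in DMSO, 446 ± 78.8 with compound 40, 369 ± 154 with 41, 320 ± 109 with 76 and 461 ± 56.9 with 77, and none of these differences passed the test (limma, adjusted p from 0.348 to 1.00). With the replicate number as a block, described below, EPAS1 was lower with 76 by 0.57 on the log2 scale (adjusted p = 0.0236), while 41 did not pass (0.112).

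Few initiation factors passed the test with any compound, at shares near those of all probe sets. In bulk RNA, fewer cells of a kind and less RNA per cell cannot be told apart. A member was called where the Benjamini-Hochberg adjusted p of limma, over 35013 probe sets, was below 0.05. With compound 40, 0 of 50 members were called, where 0.685% of all probe sets were. With compound 41, 1 was called, against 2.54% (1.17% higher and 1.37% lower), with 76, 0 against 1.35%, and with 77, 0 against 0.171%. At an unadjusted p below 0.05 the members numbered 6, 6, 4 and 1 for 40, 41, 76 and 77, that is 12, 12, 8 and 2 percent of the members, against 11.7%, 13.2%, 10.4% and 7.63% of all probe sets. The vehicle made no call either: 0 of 50 members and 0% of all probe sets differed between DMSO and Blk, with 0 members and 2.27% of probe sets at an unadjusted p below 0.05.

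The sizes of the changes were as follows. The median absolute log2 change of the members was 0.18 with 40, 0.13 with 41, 0.11 with 76 and 0.12 with 77, against 0.20, 0.20, 0.19 and 0.18 over all kept probe sets. Over the 12077 kept probe sets with a mean signal of at least 100, closer to the members in signal, it was 0.19, 0.21, 0.18 and 0.15. Of the 50 members, 3, 2, 1 and 0 differed by over 1.5-fold, where 9.19%, 10.2%, 8.3% and 6.34% of all probe sets did, and 7.71%, 11%, 7.76% and 4.59% of those with a mean signal of at least 100. The 95% interval of the change lay within 2-fold either way in 45, 46, 48 and 47 of the 50 members, so for these a larger RNA change was outside the interval, while within 1.5-fold it lay in 30, 32, 34 and 35. The signed median was slightly above that of all probe sets, which was 0, at 0.05, 0.08, 0.06 and 0.05. It rose to 0.16 with 41 and 0.13 with 76 when arrays were scaled to the same median in place of quantiles, and to 0.14 with 40 on the signals as deposited. The 4 comparisons share the DMSO arrays.

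**Figure D1:**
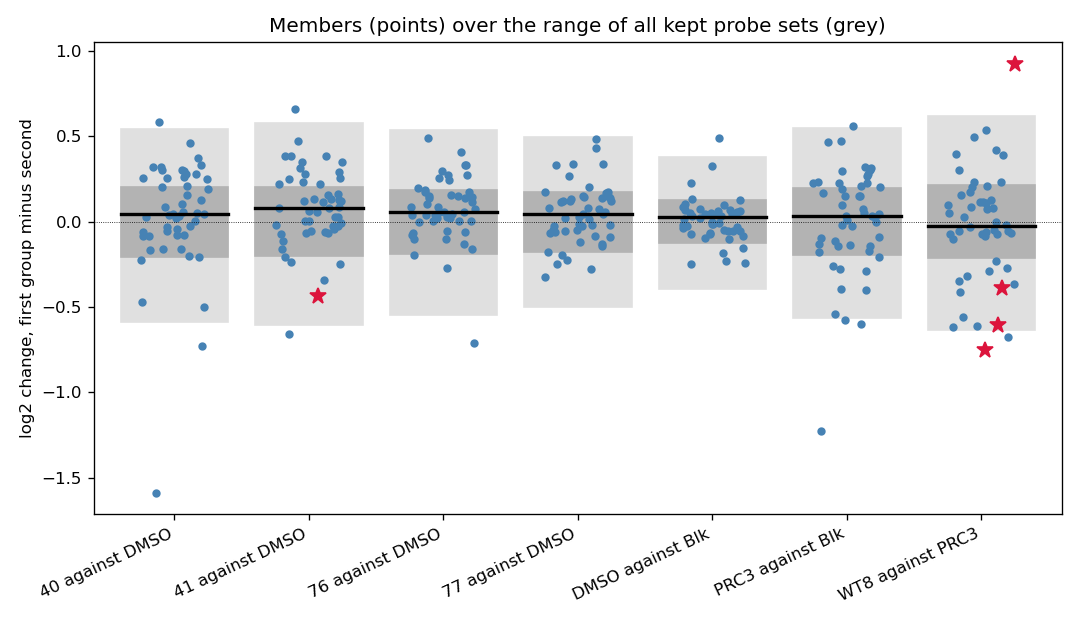
Log2 change of each of the 50 members (points; stars mark called members; black bars mark the members' median) in 7 comparisons over the middle 50% (dark grey) and middle 90% (light grey) of all 35013 kept probe sets. Most members lie within the dark band or close to it, and the called members are 1 with compound 41 and 4 in WT8 against PRC3.

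Among the eIF2 subunits, EIF2S3, which encodes the gamma subunit that binds GTP and the initiator transfer RNA, fell with compound 41. Its signals were 1069, 1049 and 950.2 in DMSO and 783.3, 767.3 and 721.5 with 41. All 3 arrays with 41 lay below all DMSO arrays and below every other array except pTR, at 769.7. The fall was 0.43 on the log2 scale (SE 0.11, 1.35-fold, limma adjusted p = 0.0271). The other 2 probe sets of the gene changed by -0.38 and -0.24 without passing. The call was lost without any 1 of DMSO replicates 1 and 2 and 41 replicates 1, 2 and 3, with adjusted p from 0.0410 to 0.125 over the 6 fits with an array left out. It was also lost with median scaling (0.240), with only the 2 groups fitted (0.0590) and with the mean of its probe sets (0.125). Against DMSO, EIF2S3 changed by -0.09 with 40, 0.01 with 76 and -0.23 with 77, none of them called, and the differences of 41 from 40, 76 and 77 were not called either.

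The alpha subunit EIF2S1, which carries the serine that stress kinases phosphorylate, had probe sets that went against each other. The chosen probe set read 564.5, 672.4 and 556.4 in DMSO, 774.3, 843.5 and 625.8 with 41, 656.6, 836.0 and 771.3 with 76, and 657.9, 934.6 and 693.0 with 77, with overlapping arrays and uncalled changes of 0.32, 0.33 and 0.34. With 41 the other 2 probe sets changed by -0.38 (limma adjusted p = 0.378) and -0.58 (adjusted p = 0.0415), so that the direction of EIF2S1 depends on the probe set. With the mean of all its probe sets, the change with 76 turned to -0.13. The cause of the disagreement was not tested. EIF2S2, which encodes the beta subunit, changed by -0.16 to 0.04 with the 4 compounds, and none of these was called.

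eIF2B, the exchange factor that recharges eIF2 with GTP, has a catalytic epsilon subunit encoded by EIF2B5 and a gamma subunit encoded by EIF2B3. EIF2B5 read 150.6, 158.4 and 193.5 in DMSO and 107.7, 99.16 and 110.7 with 41, with no overlap. This change of -0.65 (SE 0.19) missed the threshold (limma adjusted p = 0.0766). EIF2B3 read 145.0, 228.4 and 186.6 in DMSO, and 253.5, 334.1 and 287.4 with 41, again without overlap. The change was 0.66 (SE 0.32, limma adjusted p = 0.388). EIF2B3 was also above the DMSO mean with 40 (0.46; 151.3, 403.5 and 263.5), with 76 (0.41; 184.4, 307.8 and 255.5) and with 77 (0.49; 227.6, 285.9 and 260.7), and in all of these the arrays overlapped with DMSO. In each group the replicate labelled 1 was the lowest for EIF2B3, DMSO included.

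That dependence on the replicate number matters for 41 and 76. Arrays of 41 and DMSO with the same number deviated together from their group means (correlations over probe sets of 0.206, 0.187 and 0.172), as did those of 76 and DMSO (0.275, 0.184 and 0.184). With the number as a block, 5 of 50 members passed with 41, against 6.67% of all probe sets. EIF2B5 (limma adjusted p = 0.0189) and EIF2S3 (0.00163) were lower, where 3.56% of all were. EIF2B3 (0.0289), EIF1B (0.0227) and EIF3H (0.0110) were higher, where 3.11% were. With 76, 3 passed against 3.99%, all higher (1.98% of all): EIF1 (0.0152), EIF1B (0.0253) and EIF4E (0.0432).

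In the scanning group, EIF1B, a close relative of the start-codon gatekeeper EIF1, read 403.9, 457.3 and 405.7 in DMSO. It read 548.9, 610.7 and 595.9 with 41 and 636.4, 538.1 and 606.1 with 76. Every array with 41 or 76 was above every DMSO array, by 0.47 (SE 0.14, limma adjusted p = 0.0713) and 0.49 (SE 0.14, adjusted p = 0.0855), which passed only with the block. With 40 and 77 it changed by 0.00 and 0.12. EIF1 itself, which keeps the scanning ribosome open, read 4332, 4156 and 4012 in DMSO and ran from 4428 to 5446 over the 12 arrays with a compound, so every treated array was above every DMSO array, with changes of 0.26, 0.16, 0.30 and 0.18 for 40, 41, 76 and 77, none called without the block. The Blk arrays ran from 3770 to 4522 and overlapped both. These values are of the chosen probe set of EIF1. Its 6 other kept probe sets shared that direction in 4, 1, 5 and 5 cases with 40, 41, 76 and 77, none called.

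The other members placed in the scanning group gave no calls. EIF1AD read 65.30, 91.25 and 114.2 in DMSO and 111.1, 157.3 and 131.5 with 40, with overlap and a change of 0.59 (SE 0.27, limma adjusted p = 0.398), and a dimmer probe set of it changed by 0.12. EIF1AY, which encodes an eIF1A protein, read 459.3, 712.0 and 612.8 in DMSO and 456.8, 322.2 and 515.1 with 40, a change of -0.47 (SE 0.24, limma adjusted p = 0.459) with overlapping arrays. EIF1AX, which encodes the same kind of protein, changed by -0.06 to 0.08 with the 4 compounds in its chosen probe set. Of its 3 other kept probe sets, 2 were lower with 41, without overlap and uncalled. They read 200.5, 243.7 and 253.9 (DMSO 320.9, 397.3 and 339.3), and 205.3, 224.2 and 203.7 (DMSO 305.1, 277.1 and 254.3). The first of these probe sets was also below all DMSO arrays with 40 (287, 274.5 and 248.6) and 76 (288, 261.7 and 239), uncalled.

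The eIF3 complex, a scaffold on the small ribosomal subunit, was measured through 12 subunits, and none was called with any compound. Their median log2 changes were 0.13, 0.03, 0.09 and 0.09 with 40, 41, 76 and 77. EIF3H read 2192, 2023 and 1947 in DMSO and 2888, 2484 and 2484 with 41, without overlap, a change of 0.35 (SE 0.10, limma adjusted p = 0.0539). EIF3E changed by 0.10, 0.00, 0.11 and 0.05. For EIF3H the arrays of 40, 76 and 77 were also above all DMSO arrays, by 0.25, 0.17 and 0.15. A dimmer probe set of EIF3H went the other way with each compound, uncalled. It read 91, 89.64 and 101 in DMSO and 20, 45.36 and 67.49 with 41. Over the whole set, arrays did not overlap with DMSO in 8, 12, 7 and 5 members with 40, 41, 76 and 77, against 14.0%, 20.2%, 17.2% and 13.1% of all probe sets. EIF1, EIF2A and EIF3H were among them with each compound. For EIF2A, a factor for initiation without eIF2, the DMSO arrays (706.8, 762.5 and 739.4) also lay below all Blk arrays (779.9, 855.7 and 824.2), 1 of 2 members without overlap there, against 6.15% of all probe sets.

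In the eIF4 group, EIF4E, the cap-binding protein, read 864.2, 1098 and 908.1 in DMSO and 1130, 1325 and 1145 with 76. All 3 arrays with 76 were higher, by 0.33 (SE 0.12, limma adjusted p = 0.263). The 3 other probe sets of EIF4E changed by 0.15, -0.11 and 0.11. EIF4E2, a cap-binding relative that represses translation, was not called. A dimmer probe set of it fell by 0.76 with 41 (limma adjusted p = 0.0273), while the chosen one changed by 0.16. The dimmer one was also below all DMSO arrays (98.73, 108.7 and 115.2) with 76 and 77, uncalled. It read 72.93, 77.66 and 74.6 with 76, and 58.51, 54 and 65.91 with 77. EIF4G2, which supports cap-independent initiation, changed by -0.16, -0.02, 0.00 and -0.07 with 40, 41, 76 and 77. EIF4EBP1, the best known of the mTOR-controlled inhibitors of eIF4E, read 417.5, 436.6 and 372.2 in DMSO and 274.4, 371.9 and 328.5 with 41, without overlap and below the threshold (change of -0.34, SE 0.16, limma adjusted p = 0.358).

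**Figure D2:**
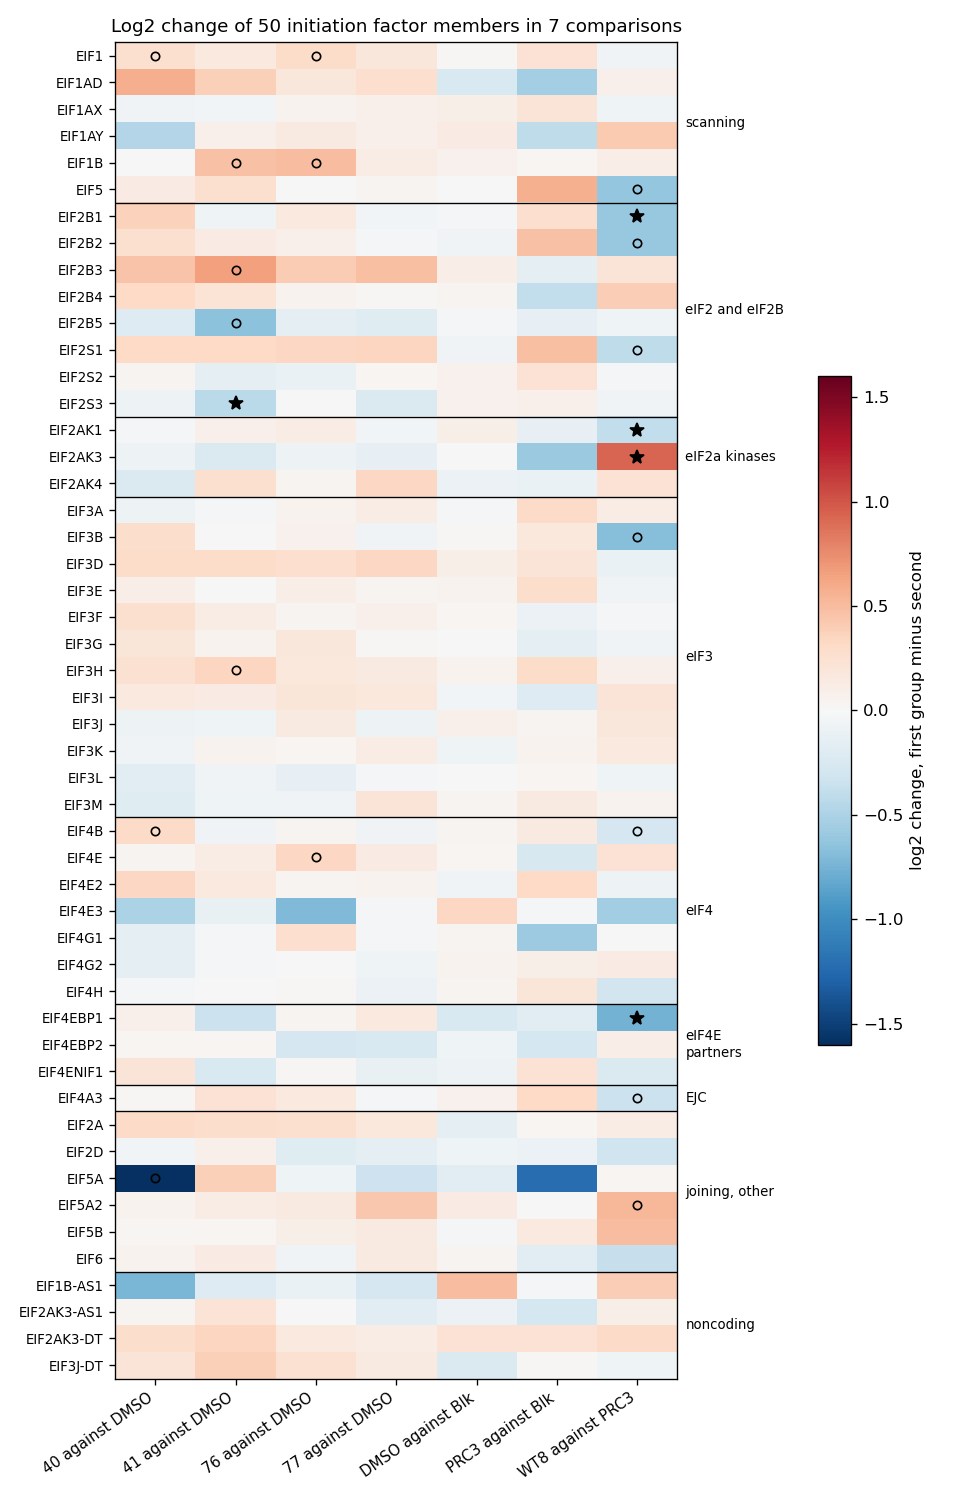
Log2 change of the 50 members (rows, grouped by role) in 7 comparisons (columns), from blue for lower to red for higher in the first named group. Stars mark changes called without the replicate block and circles those called only with it; the darkest cell is EIF5A with compound 40, at -1.59, and stars stand at EIF2S3 with 41 and at 4 genes in WT8 against PRC3.

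EIF5A, the hypusine-modified factor that helps ribosomes through difficult peptide bonds, set compound 40 apart from 41. It read 547.8, 831.4 and 626.8 in DMSO and 162.1, 166.5 and 388.2 with 40. With 41 it read 680.5, 1097 and 849.8, with 76 625.6, 467.2 and 856.6, and with 77 318.2, 660.3 and 689.5. The arrays with 40 lay below all DMSO, 41 and 76 arrays and overlapped with 77. Against DMSO the change with 40 was -1.59 (SE 0.41, 3.01-fold, limma adjusted p = 0.0707), the largest of any member with any compound. It passed without 40 replicate 3 (adjusted p = 0.0329) but not without any 1 of the other 5 arrays.

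Compounds were compared over 6 pairs, with p-values adjusted over all kept probe sets of the 6 pairs together, and the doses and times behind the pairs are not given. Of the 50 members, 1 was called in 1 pair: EIF5A was higher with 41 than with 40 by 1.97 (95% interval 1.13 to 2.81, SE 0.41, limma adjusted p = 0.0289), where 0.426% of all probe sets were called. It was higher with 76 than with 40 by 1.53 (interval 0.69 to 2.37, adjusted p = 0.131) and with 77 than with 40 by 1.26 (interval 0.42 to 2.10, adjusted p = 0.253), which did not pass. No member was called in 76 against 40 (0.186% of all), 77 against 40 (0.388%), 76 against 41 (0.174%), 77 against 41 (0.408%) or 77 against 76 (0.443%). Between 76 and 41 the difference in EIF5A was -0.45 with an interval from -1.29 to 0.39, too wide to call them alike.

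The call for EIF5A was lost without 40 replicate 1 or 2 or any 1 of the 3 arrays of 41, with changes from 1.76 to 2.39 and adjusted p from 0.0109 to 0.144 over 12 fits with an array left out. The 2 dimmer probe sets of EIF5A differed between 41 and 40 by 0.60 (limma adjusted p = 0.311) and 0.33 (0.757), and the mean over all its probe sets by 0.97 (0.0738). Without both rescaled arrays of compound 40, tried after these columns were seen, the difference was 2.41 with 1 array left (adjusted p = 0.0954). EIF5A also had the largest spread within groups of all members. Outside the compounds EIF5A was low in PRC3 (398.6, 210.7 and 390.2), below all Blk and DMSO arrays, and in WT8 replicate 3 (147.6). The 3 prime to 5 prime ratio of ACTB was 1.09, 1.32 and 1.25 with 40. With 41 it was 1.115, 0.977 and 1.02. It was 1.22, 1.32 and 1.18 in PRC3 and 2.37 in WT8 replicate 3. On 77 replicate 1, where EIF5A read 318.2, it was 1.02. The part of these ratios in the EIF5A values was not tested. EIF5A2, a close relative of EIF5A, read 185.8, 240.2 and 247.2 in DMSO and 258.0, 348.5 and 300.8 with 77, without overlap and uncalled (change of 0.43, SE 0.23, limma adjusted p = 0.712).

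**Figure D3:**
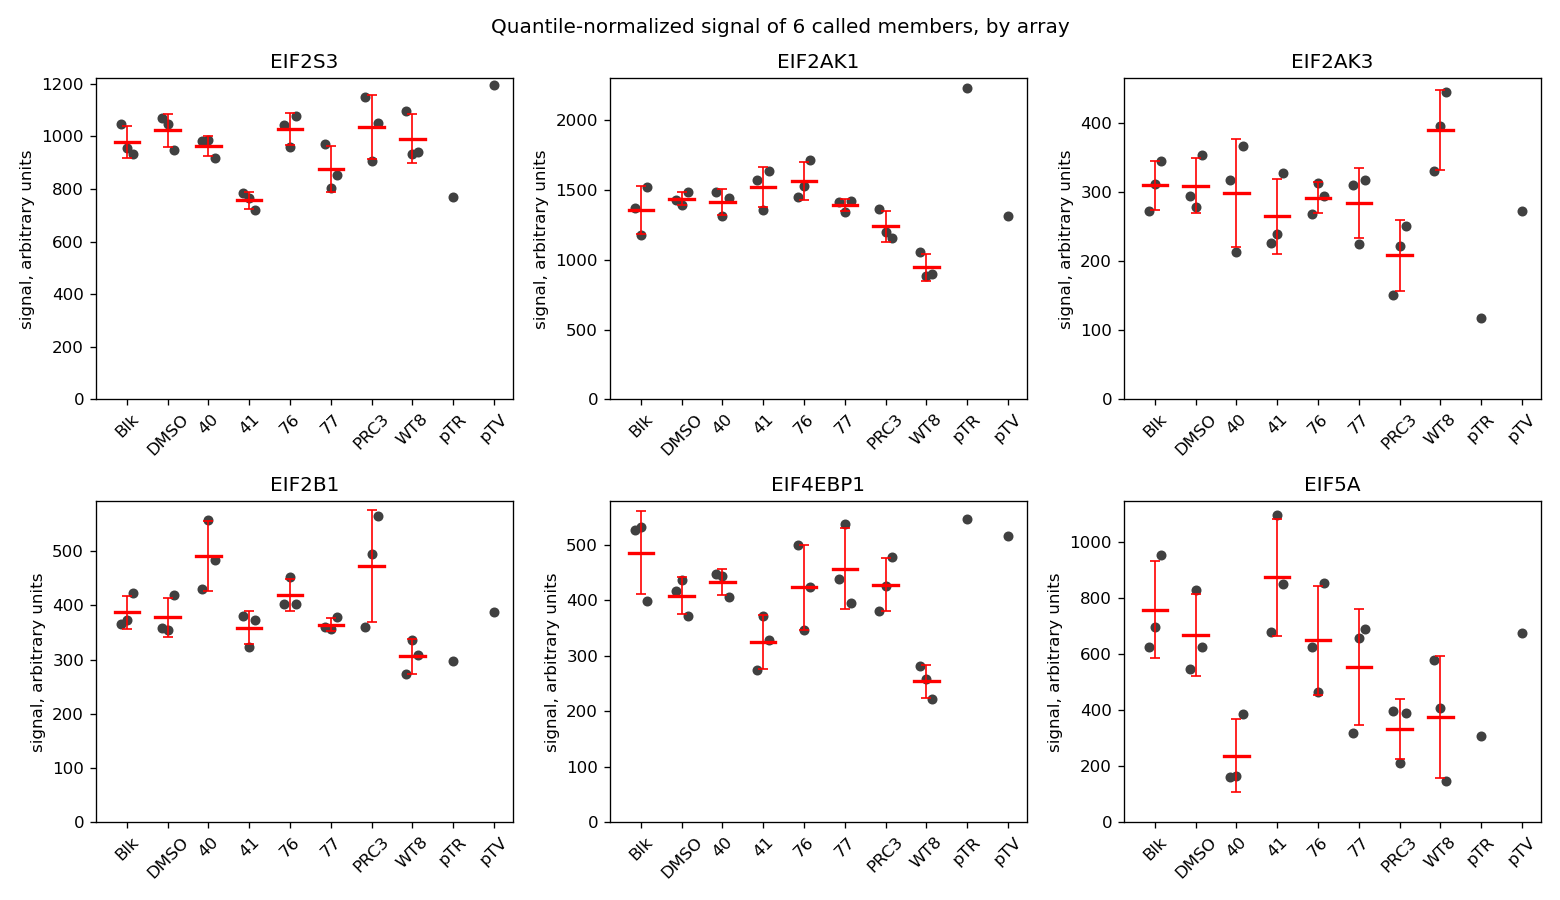
Quantile-normalized signal in arbitrary units of the 6 members called in a comparison or compound pair, on each of the 26 arrays (points), with the group mean (red bar) and SD (red whisker, n = 3); pTR and pTV have 1 array each. EIF2S3 is low with 41, and EIF4EBP1 and EIF2AK1 are low and EIF2AK3 high in WT8. EIF5A is low with 40 (162.1 to 388.2) and in PRC3 (210.7 to 398.6), and variable elsewhere.

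Members with roles in eIF2 recycling and cap binding differed between the sublines, in a share near that of all probe sets. Between WT8 and PRC3, 4 of 50 members were called, against 4.56% of all probe sets: 1 higher (2.35% of all) and 3 lower (2.21%). They belong to the eIF2 kinases, eIF2B and the eIF4E inhibitors. All 4 calls were lost when only the 6 arrays of WT8 and PRC3 were fitted (adjusted p from 0.117 to 0.305), a fit that called 0.0543% of all probe sets. Arrays with the same number deviated together in these sublines (correlations of 0.457, 0.107 and 0.346), and with the number as a block 11 members passed, against 9% of all probe sets. At an unadjusted p below 0.05 there were 11 members (15.6% of all probe sets), and in 8 the arrays did not overlap (15.8%).

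EIF2AK3, which encodes PERK, the eIF2 kinase of the endoplasmic reticulum, rose in WT8. It read 151.9, 222.2 and 251.7 in PRC3 and 330.2, 395.4 and 445.8 in WT8. The arrays did not overlap, and the rise was 0.93 (SE 0.21, 1.90-fold, limma adjusted p = 0.00825), with the block 2.09e-04. The call was lost without PRC3 replicate 1 (adjusted p = 0.0653) and with arrays scaled to the same median (adjusted p = 0.0689). The Blk arrays, at 272.9, 312.4 and 344.8, lay above all PRC3 arrays, and PRC3 against Blk changed by -0.60 without a call (adjusted p = 0.210). EIF2AK1, the heme-regulated eIF2 kinase, went the other way. It read 1362, 1196 and 1153 in PRC3 and 1058, 885.4 and 894.8 in WT8. It fell by 0.39 (SE 0.11, 1.31-fold, limma adjusted p = 0.0427). This call was lost without PRC3 replicate 1 or 2 or WT8 replicate 2 or 3. Over the 6 fits with an array left out, the adjusted p ran from 0.0189 to 0.175. The call was also lost on the signals as deposited (0.0755), with median scaling (0.0513) and with the mean of the gene's probe sets (0.0657). The second probe set of EIF2AK1 changed by -0.48 (adjusted p = 0.352). EIF2AK4, which encodes the amino acid sensing kinase GCN2, changed by 0.23 without a call. EIF2AK2, the double-stranded RNA kinase PKR left out of the set by its rule, was higher in WT8 by 0.78 (limma adjusted p = 0.00125) and lower in PRC3 than in Blk by 0.65 (adjusted p = 0.0235). The first call was lost with median scaling (0.0844) and the second without PRC3 replicate 1 or 3 or Blk replicate 2 or 3.

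EIF4EBP1 fell in WT8. It read 381.8, 425.8 and 478.3 in PRC3 and 281.7, 258.4 and 223.1 in WT8. The arrays did not overlap, and the fall was 0.75 (SE 0.16, 1.69-fold, limma adjusted p = 0.00511). It passed in each of the 6 fits with an array left out (adjusted p from 0.00592 to 0.0309). WT8 was below the Blk and DMSO arrays as well, which ran from 372.2 to 531.8. Its relatives EIF4EBP2 and EIF4ENIF1, the latter an eIF4E transporter, changed by 0.10 and -0.23 without a call.

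EIF2B1, the alpha subunit of eIF2B that takes part in sensing phosphorylated eIF2, fell in WT8. It read 359.8, 493.7 and 564.0 in PRC3 and 272.6, 336.5 and 308.8 in WT8. The lowest PRC3 array was still above the highest WT8 array, and the fall was 0.61 (SE 0.15, 1.52-fold, limma adjusted p = 0.0136). The call was lost without WT8 replicate 1 or PRC3 replicate 2 or 3. Over the 6 fits with an array left out, the adjusted p ran from 0.00135 to 0.0925. EIF2B2, the beta subunit, read 252.3, 363.9 and 357.4 in PRC3 and 209.3, 208.2 and 211.8 in WT8, a change of -0.61 (SE 0.19, limma adjusted p = 0.0666) that passed with the block (0.00705). EIF2B4, the delta subunit, was instead higher by 0.40 and uncalled.

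With the block, EIF2S1, EIF3B, EIF4A3, EIF4B, EIF5 and EIF2B2 joined EIF2AK1, EIF2B1 and EIF4EBP1 on the lower side (9 members, against 4.38% of all probe sets), and EIF5A2 joined EIF2AK3 on the higher side (2, against 4.62%). EIF3B, the large scaffold subunit of eIF3, read 697.4, 1106 and 1492 in PRC3 and 568.3, 649.4 and 764.5 in WT8. WT8 was lower in each numbered pair though the arrays overlapped, and the change was -0.68 (SE 0.20, limma adjusted p = 0.0554, with the block 3.59e-04). All 5 of its probe sets changed by -0.51 to -0.73, and 1 of the other 4 passed without the block (-0.66, adjusted p = 0.0347).

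EIF5, the GTPase-activating protein of eIF2, read 837.0, 1241 and 1271 in PRC3 and 553.7, 701.2 and 948.0 in WT8 in its chosen probe set. The arrays overlapped and the change of -0.61 (SE 0.24) did not pass (limma adjusted p = 0.170). Its other 4 probe sets changed by -0.45 to -0.82, and 2 of them passed, at -0.79 (adjusted p = 0.00345) and -0.82 (adjusted p = 0.00310). The last of these read 521.2, 496.3 and 551.7 in PRC3 and 287.6, 323.3 and 277.0 in WT8, with no overlap, and was higher in PRC3 than in Blk by 0.71 (adjusted p = 0.0340). EIF2S1 was lower in all 3 probe sets (-0.41, -0.68 and -0.50), of which the -0.68 passed (adjusted p = 0.0302), and a second probe set of EIF4B, a helicase cofactor, fell by 0.45 (adjusted p = 0.0430), while its remaining probe set changed by 0.28 without a call. These probe sets were picked out after their values were seen. Over the 30 members with 2 or more kept probe sets, the sign of the other 65 probe sets was that of the chosen one in 49 in WT8 against PRC3, and in 36, 34, 40 and 42 with 40, 41, 76 and 77. Without WT8 replicate 3, the array of high 3 prime to 5 prime ratios, 4 members were called, 1 higher and 3 lower. Without PRC3 replicate 2 there were 2.

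**Figure D4:**
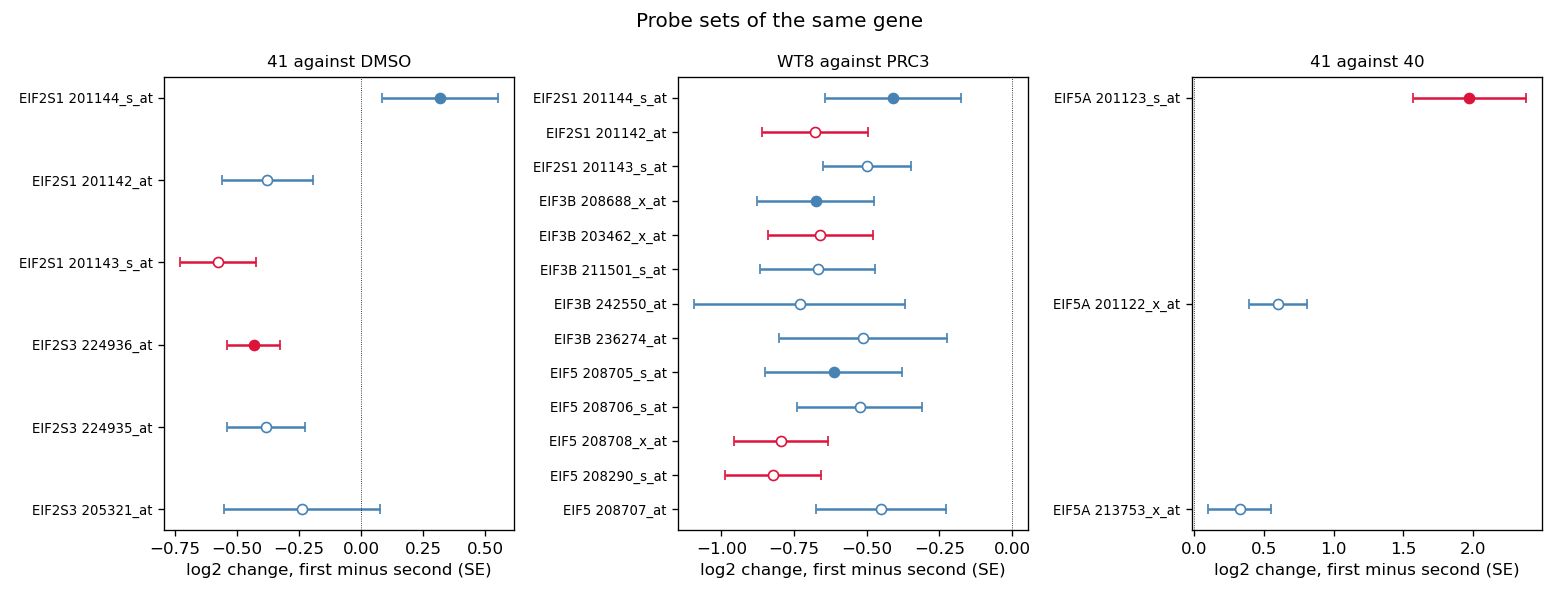
Log2 change (point) and its SE (whisker) of every kept probe set of named members in 3 comparisons; filled points are the chosen probe set, open points the others, and red marks an adjusted p below 0.05. EIF3B, EIF5 and EIF2S1 lie below 0 with all their probe sets in WT8 against PRC3, EIF2S1 has both signs with 41, and EIF5A differs in size between its probe sets (1.97, 0.60 and 0.33).

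Between PRC3 and Blk 0 of 50 members were called, against 1.03% of all probe sets. At an unadjusted p below 0.05 there were 11 members, against 11.2%. The largest change was that of EIF5A, at -1.22 and uncalled. It read 398.6, 210.7 and 390.2 in PRC3 and 625.4, 699.4 and 954.9 in Blk, without overlap. EIF4G1, the scaffold of eIF4F, read 610.0, 686.4 and 921.7 in PRC3 and 1124, 968.6 and 1178 in Blk, a change of -0.58 (limma adjusted p = 0.192) without overlap. It read 915.1, 849.8 and 496.4 in WT8, a difference of 0.00 from PRC3.

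An F-test over all 8 groups called 10 of 50 members, against 13.1% of all probe sets. These were EIF1B, EIF2AK1, EIF2B1, EIF2B4, EIF2S3, EIF3H, EIF4E, EIF4EBP1, EIF4G1 and EIF5A. Of the remaining 40 members, none passed, including 11 of the 12 eIF3 subunits.

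On the single arrays pTR and pTV, which allow no test, 5 of 50 members differed by over 2-fold, against 11.7% of all probe sets: 3 lower in pTR (5.95% of all) and 2 higher (5.76%). EIF2AK3 was lower in pTR (118.0 against 272.3), as were EIF5A (308.5 against 678.2) and EIF1B-AS1 (27.84 against 60.30). EIF5 (1318 against 616.4) and EIF2S1 (1141 against 492.1) were higher in pTR. The pTR value of EIF2AK3 was the lowest of the 26 arrays, and that of EIF5 the highest.

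The genes around the initiation factors moved in a few places. Without the block, 0.685%, 2.54%, 1.35% and 4.56% of all probe sets were called with 40, 41, 76 and in WT8 against PRC3. Of 20 listed regulators and targets of eIF2 phosphorylation, all measured, 1 was higher and 2 lower with compound 41 (median -0.07): SLC7A11, a cystine transporter, rose by 2.68 on the log2 scale (6.42-fold, limma adjusted p = 5.74e-06), while TRIB3, a pseudokinase induced by ATF4, fell by 1.57 (adjusted p = 0.0177) and ASNS, asparagine synthetase, by 1.52 (adjusted p = 0.0185). The 2 falls each lost their call without DMSO replicate 1 or 2 or 41 replicate 2 or 3, ASNS also without 41 replicate 1. SLC7A11 also rose with 40 (2.75-fold, adjusted p = 0.0190, lost without DMSO replicate 2 or 3 or 40 replicate 2 or 3) and 76 (6.17-fold, adjusted p = 8.29e-06), and none of the 20 passed with 77 or between DMSO and Blk. With the block, 7 of the 20 passed with 41 and 4 with 76, where 6.67% and 3.99% of all probe sets did. With 41, PPP1R15A (0.78, adjusted p = 0.0359) and CEBPB (0.56, 0.0105) were then also higher, and PSAT1 (-1.06, 0.00869) and DDIT4 (-1.38, 6.41e-04) lower. With 76, CEBPB (0.50, 0.0352) was higher, and TRIB3 (-0.79, 0.0220) and DDIT4 (-0.99, 0.0166) lower. In WT8 against PRC3, 1 rose, EIF2AK2, and 1 fell, TRIB3, by 1.40 (adjusted p = 0.0240, lost without PRC3 replicate 1 or 2 or WT8 replicate 2 or 3). With the block 4 passed, DNAJC3 (0.36, adjusted p = 0.0417) and DDIT4 (-1.42, 3.33e-04) in addition, where 9% of all probe sets did.

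Of 17 measured genes between mTOR and eIF4E, DEPTOR, an inhibitor of mTOR, was called in WT8 against PRC3. All 3 PRC3 arrays were at the floor, so it was at least 3.44-fold higher (limma adjusted p = 2.59e-04), and no other gene of this list passed without the block. With it, 1 passed with 41 (DDIT4, listed in both sets), 2 with 76 (DDIT4, and AKT1S1 at 0.60, adjusted p = 0.0368) and 3 in WT8 against PRC3 (DEPTOR, DDIT4, and RPTOR at -1.46, adjusted p = 0.0156). Among all probe sets, 6.67%, 3.99% and 9% passed with the block in these comparisons, and 2.54%, 1.35% and 4.56% without it. Of 58 measured ribosomal protein genes, RPS27L, a p53-induced relative of a ribosomal protein, rose 1.64-fold with 41 (adjusted p = 0.00233) and RPS29 fell 1.35-fold in WT8 (adjusted p = 0.00483), with list medians of 0.00 and -0.06. With the block, RPL7L1 also passed with 41 (0.36, adjusted p = 0.0216). None of 11 measured elongation and termination factors, 14 measured poly(A)-binding and accessory factors or 7 measured mitochondrial factors was called in any of the 7 comparisons without the block. With it, BZW1 was lower with 41 (-0.45, adjusted p = 0.0116) and in WT8 (-0.39, 0.0240), MCTS1 higher with 76 (0.38, 0.0372) and in WT8 (0.44, 0.00831), and EEF1D lower in WT8 (-0.46, 0.0176). Of the mitochondrial factors, GFM1 was higher with 76 (0.47, adjusted p = 0.0498) and in WT8 (0.66, 0.00238), and MTIF2 in WT8 (0.47, 0.00771). Their medians with 40, 41, 76 and 77 were 0.12, 0.02, 0.03 and 0.01 for elongation and termination, 0.03, 0.04, 0.05 and -0.03 for the accessory factors, and 0.04, 0.14, 0.16 and 0.12 for the mitochondrial factors. In WT8 against PRC3 these medians were -0.02, 0.09 and 0.21.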

How the data were processed

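The table deposited by the authors holds 1 linear signal intensity for each probe set and array. The submitters' processing notes name MAS5, without a version. Per the labels, signals under 20 or over 16000 were set to those limits. This was done here after quantile normalization of the 26 arrays without the 62 control probe sets, followed by log2. Of 54675 probe sets, 35013 were kept, those no lower than the array's median on 3 or more of the 24 replicated arrays. Contrasts were fitted in limma 3.58.1 (R 4.3.3; lmFit, eBayes with a trend) on all 24 arrays with 16 residual degrees of freedom, Benjamini-Hochberg adjusted and called below 0.05. Probe sets were named through the platform annotation, only where 1 gene was listed.

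Values in every array are given for called members, the 3 largest changes of each compound and of WT8 against PRC3 with a signal of at least 100. The member of highest deposited signal in each role group may also be named. Other members (EIF1AX, EIF2A, EIF2AK4, EIF2B2, EIF2B4, EIF3H, EIF4B, EIF4E, EIF4E2, EIF4G1 and EIF5 among them) and single probe sets were picked after their values were seen. The members and lists were chosen with earlier results of these data known. Replicate numbers were taken to pair arrays where all 3 correlations of same-numbered deviations exceeded 0.1. This held for 41, 76, Blk with DMSO, and WT8 with PRC3. The fit was tested on simulated data. Alternatives were scaling, filter, floor, fitted arrays, block, probe set summary, control and left-out arrays.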

Additional observations from a re-analysis of the deposited data

Results flagged for a closer look

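The effect of 2 compounds on EIF5A differed by a test of the difference itself: the log2 signal was 1.97 higher with 41 than with 40 (limma, adjusted p = 0.0289, all 3 arrays of 41 above all 3 of 40). The part played by the large spread of this probe set was not tested.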

How the results depend on the processing

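Counts of called members moved by over 1.5 times in these settings (limma throughout; the share of all probe sets called under the same setting in brackets). With compound 40, none were called, but 1 was on signals as deposited (0.611%), 3 with the replicate block (3.15%) and 1 with DMSO and Blk together as control (2.09%). With 41, 1 became 0 with median scaling (1.47%) and with only the 2 groups fitted (1.07%), 2 without a filter (1.21%) and with a floor of 50 (2.48%), 5 with the block (6.67%) and 4 with the joint control (5.05%). With 76, 0 became 1 with a floor of 50 (1.33%), 3 with the block (3.99%) and 2 with the joint control (2.9%). In WT8 against PRC3, 4 became 2 with median scaling (3.38%), 0 with the 2 groups alone (0.0543%) and 11 with the block (9%). For pairs of compounds, summed over the 6 pairs, 1 (0.337%) became 0 on deposited signals (0.291%), without a filter (0.151%) and without both rescaled arrays (0.188%), and 7 with the block, 4 higher and 3 lower (1.67%). For the F-test, 10 (13.1%) became 4 with median scaling (9%) and 20 with the block (18.9%). Arrays left out one at a time gave 0 to 1 members for 40, 0 to 1 for 41, 0 to 1 for the pairs, 2 to 5 for WT8 against PRC3 and 7 to 11 for the F-test, and 0 for 76, 77, DMSO and PRC3 against Blk. The block made no call for 77, DMSO against Blk or PRC3 against Blk. For 40 and 77 not every correlation of same-numbered arrays exceeded 0.1 (0.141, 0.0769 and 0.0964, and 0.165, 0.165 and 0.067). Each was still above the highest between differently numbered arrays (0.0221 for 40 and 0.0191 for 77). The block was fitted for these compounds as well. EIF2S1 with 76 turned from 0.33 to -0.13 with the mean of its probe sets. The causes were not tested. Signals near the floor of 20 (16.7% to 20.8% of kept values per array) limit only the dimmest members.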
